A study of Mus musculus with 18 samples.

Results

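Bone marrow (BM) mesenchymal stem cells (MSCs) labelled Pot1a Δ/Δ were compared between week 4 and week 1 of culture, to ask how the expression of all genes changed with time in culture after the gene had been targeted. The comparison took the 3 libraries of week 4 and the 3 libraries of week 1 labelled Δ/Δ, which are 6 of the 18 libraries of the series, and 13169 of 24421 gene symbols had enough counts to be tested. Cells of all 4 cultured groups came from mice aged 4 to 6 months and labelled C57BL/6, although the study names a mixed strain of origin for its Pot1a flox allele. The Δ/Δ mice were Pot1a flox/flox, and mice of both genotypes held a tdTomato gene behind a flox-stop-flox sequence, which is read only after Cre has cut out the stop. Cells were flushed from femurs and tibiae, sorted as CD51+/PDGFRα+ cells on day 7, given vesicles loaded with Cre 3 days later (10 µL per well for 12 h) and sorted again for tdTomato 48 h after that. Week 4 cells were collected on day 40 and week 1 cells on day 19, after weekly passage in 5% oxygen and 10% carbon dioxide. The wt/wt cells, with 3 libraries of week 4 and 3 of week 1, were Pot1a w/w cells that went through the same Cre and the same sorts, and were used to test whether a change over culture differed between the genotypes.

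The tdTomato reporter marks cells that met Cre and does not show that both Pot1a alleles were cut in each of them. The study counts 3 mice per group, and the labels do not say which libraries share a mouse, a day or a library batch, so week and any such batch cannot be told apart. The study's scheme places an induction of differentiation between both days, whereas its methods for gene analyses name expansion medium, so the medium of the week 4 cells is uncertain.

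POT1a binds the single-stranded end of the telomere as a member of shelterin, the complex that keeps chromosome ends from being read as DNA breaks. MSCs of the marrow can form bone, cartilage and fat cells, and they make factors such as the chemokine Cxcl12 and stem cell factor (Kitl) that keep blood stem cells in their niche. Over weeks of passage cultured cells often slow their division, and the genes of the cell cycle, of p53 and of the lineages are commonly read to follow this.

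Levels are given as CPM, a gene's count scaled to the size of its library, with library sizes adjusted by trimmed mean of M-values (TMM). Pot1a itself, counted in every library as a check of the labels, had 47.9, 46.3 and 42.8 CPM at week 4, against 31.1, 37.9 and 34.6 CPM at week 1. All 3 week 4 libraries of Δ/Δ MSCs lay above all 3 week 1 libraries, with a log2 fold change of 0.40 (0.11 SE, edgeR quasi-likelihood adjusted p = 0.013), and an exact two-sided permutation test gave p = 0.1, the smallest that 3 against 3 libraries allow. The edgeR call was lost without week 1 replicate 1, at 0.34 and an adjusted p of 0.0592. The wt/wt mean of Pot1a was 34.9 ± 2.54 CPM at week 4, against 34.9 ± 1.51 CPM at week 1. A count sums reads from all exons of a gene, so RNA that lacks only the deleted exons is still counted, and the libraries labelled Δ/Δ lay above the wt/wt libraries at week 4 and overlapped them at week 1. For MSCs deleted in culture the study reports significantly less Pot1a mRNA by qPCR. On a gel it shows the flox band lost and a deletion band present. The gene counts here do not show that loss, so directions below belong to the libraries labelled Δ/Δ. Another locus also set the genotypes apart, since Ifi202b, an interferon-inducible gene, had 0 counts in all 6 Δ/Δ libraries and 204 to 1221 counts in the wt/wt libraries, so a difference between genotypes cannot be told apart from one of genetic background.

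The Δ/Δ libraries held 20372063 to 90717232 counts at week 4 and 16497756 to 33353069 at week 1, and libraries of the same group differed by more than counting error. Pdgfra and Itgav, which encode the receptor and the integrin (CD51) used for the sort, were read in all 6. Pdgfra had 193 to 259 CPM at week 4, against 96.2 to 128 CPM at week 1. Itgav had 207 to 444 CPM at week 4, against 421 to 496 CPM at week 1. Prrx1, a transcription factor of limb mesenchyme, had 92.4 to 129 CPM at week 4, against 103 to 117 CPM at week 1. Markers of other marrow cells were at 0 in all 6 libraries for 5 of 20 macrophage and monocyte genes (C1qa and Tyrobp among them) and 5 of 12 lymphocyte genes (Pax5 among them). The same held for 6 of 10 erythroid genes (the globins among them), 3 of 15 endothelial genes (Cdh5 and Emcn among them) and 2 of 8 megakaryocyte genes (Pf4 among them). Some other members of these lists were read at a low level in every library, and others, such as Ptprc, were at 0 in part of them. Csf1r of macrophages had 1.68 to 1.86 CPM at week 4, against 1.63 to 1.99 CPM at week 1. Tek of endothelium had 4.66 to 6.42 CPM at week 4, against 4.54 to 5.84 CPM at week 1, and Itga2b of megakaryocytes had 2.50 to 3.39 CPM at week 4, against 2.66 to 3.59 CPM at week 1. Not all such members were level between the weeks. Epor of the erythroid list was called higher, at 3.11 to 4.02 CPM at week 4, against 0.968 to 1.46 CPM at week 1. Flt4 of endothelium was called lower, at 0.563 to 1.65 CPM at week 4, against 1.95 to 3.09 CPM at week 1. The level of a gene in such bulk RNA cannot tell a smaller share of cells that express it from less RNA per cell.

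Over culture, 2482 genes were higher and 2141 were lower at week 4 in Δ/Δ MSCs (edgeR quasi-likelihood F-test, Benjamini-Hochberg adjusted p of 0.05), which is 18.8% and 16.3% of the genes tested, and 35.1% in either direction. Of these, 1048 were higher and 782 lower by at least 2-fold, and the median log2 fold change of all genes was 0.00. Along the first principal component of the 500 most variable genes, which held 87.3% of the variance, the week 4 libraries lay at 25.4 to 32.2 and the week 1 libraries at -30.5 to -27.6. Among wt/wt MSCs 34% of genes were called over the same interval. Of the genes higher in Δ/Δ MSCs, 1399 (56.4%) were also higher in wt/wt MSCs, and of those lower 1331 (62.2%) were also lower, while 92 were higher in Δ/Δ and lower in wt/wt MSCs and 81 were lower in Δ/Δ and higher in wt/wt MSCs. The change over culture differed between the genotypes for 7.15% of genes by the test of that difference, with the Δ/Δ change above the wt/wt change for 537 genes (4.08%) and below it for 405 (3.08%). The background shares named here, 18.8% higher, 16.3% lower, 4.08% and 3.08%, are those against which the counts of each gene list are read.

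**Figure D1:**
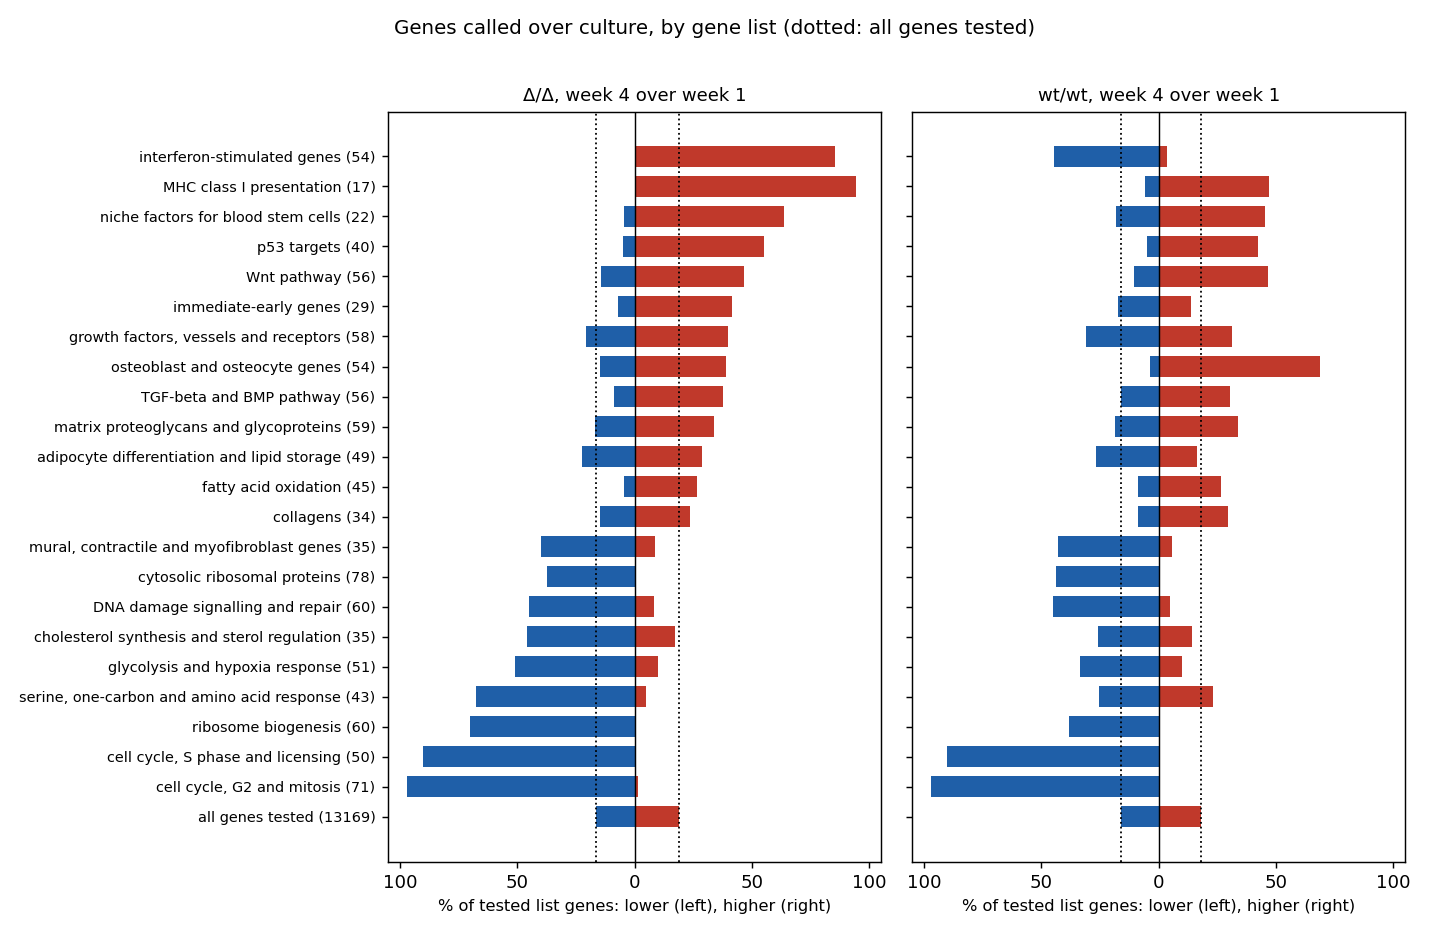
Share of the tested genes of each list called higher (right, red) or lower (left, blue) at week 4 over week 1 in Δ/Δ MSCs (left panel) and wt/wt MSCs (right panel), in percent, with the number tested in parentheses and dotted lines at the shares of all 13169 genes. Interferon-stimulated genes were called higher for 46 of 54 members in Δ/Δ and 2 of 54 in wt/wt MSCs, and G2 and mitosis genes lower for 69 of 71 in both.

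Genes of the dividing cell fell nearly throughout. Of 71 genes of G2 and mitosis, 69 were lower at week 4 in Δ/Δ MSCs and 1 was higher, beside 16.3% lower and 18.8% higher of all genes, with a median log2 fold change of -1.74. Of 50 genes of S phase and replication licensing, 45 were lower and 5 were not called, with a median of -1.10. In wt/wt MSCs 69 of the 71 and 45 of the 50 were lower too, with medians of -2.05 and -1.25, and the test of the difference between genotypes called 1 and 2 of them.

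Mki67, which encodes the proliferation antigen Ki-67, had 11.2, 24.6 and 15.2 CPM at week 4, against 100.2, 85.1 and 90.0 CPM at week 1. Replicate 2 was the highest of the week 4 libraries and stayed far below every week 1 library, and the log2 fold change was -2.44 (0.27 SE, adjusted p = 2.46e-05 by edgeR). Bub1b, a kinase of the spindle checkpoint, had 28.2, 28.3 and 24.1 CPM at week 4, against 109.9, 104 and 103 CPM at week 1, with a log2 fold change of -1.98 (0.11 SE). The groups of Bub1b did not overlap, and its libraries within a week were nearly level. Its partner Bub1 fell by 2.06 on the log2 scale, Kif23, a motor protein of the dividing furrow, by 1.95, and Cdca3, a trigger of entry into mitosis, by 1.97. All 71 genes of the list had week 4 and week 1 values that did not overlap in Δ/Δ MSCs, as 51.2% of all genes tested did not, and week 4 replicate 2 held the highest of the 3 week 4 values for 52 of them. The exceptions to the fall were Pttg1, which encodes securin, at 30.5, 26.6 and 26.4 CPM at week 4, against 17.6, 20.1 and 15.5 CPM at week 1 and a log2 fold change of 0.65 (adjusted p = 0.014 by edgeR), and Bub3, another checkpoint protein, at 136, 101 and 114 CPM at week 4, against 144, 154 and 147 CPM at week 1 (adjusted p = 0.0824 by edgeR). The call of Pttg1 was lost without week 1 replicate 3 (log2 fold change 0.57). Pttg1 and Bub3 were picked out after their values were seen.

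Among genes of S phase, Uhrf1, which keeps DNA methylation through replication, had 21.9, 17.0 and 21.7 CPM at week 4, against 88.0, 79.6 and 92.8 CPM at week 1. Its log2 fold change of -2.10 (0.12 SE, adjusted p = 1.60e-07 by edgeR) came from groups far apart. Mcm5, a subunit of the replicative helicase, had 22.5, 20.3 and 21.96 CPM at week 4, against 91.6, 76.9 and 93.3 CPM at week 1, again with no overlap. E2f7, a repressor of E2F targets that is itself made in S phase, fell to 3.81 ± 0.187 CPM at week 4, against 19.8 ± 2.50 CPM at week 1. The wt/wt log2 fold changes were -2.52 for Mki67, -2.29 for Bub1b, -2.12 for Uhrf1 and -2.04 for Mcm5, and none of the 4 differed from the Δ/Δ change by the test (adjusted p = 0.325 to 0.974 by edgeR).

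**Figure D2:**
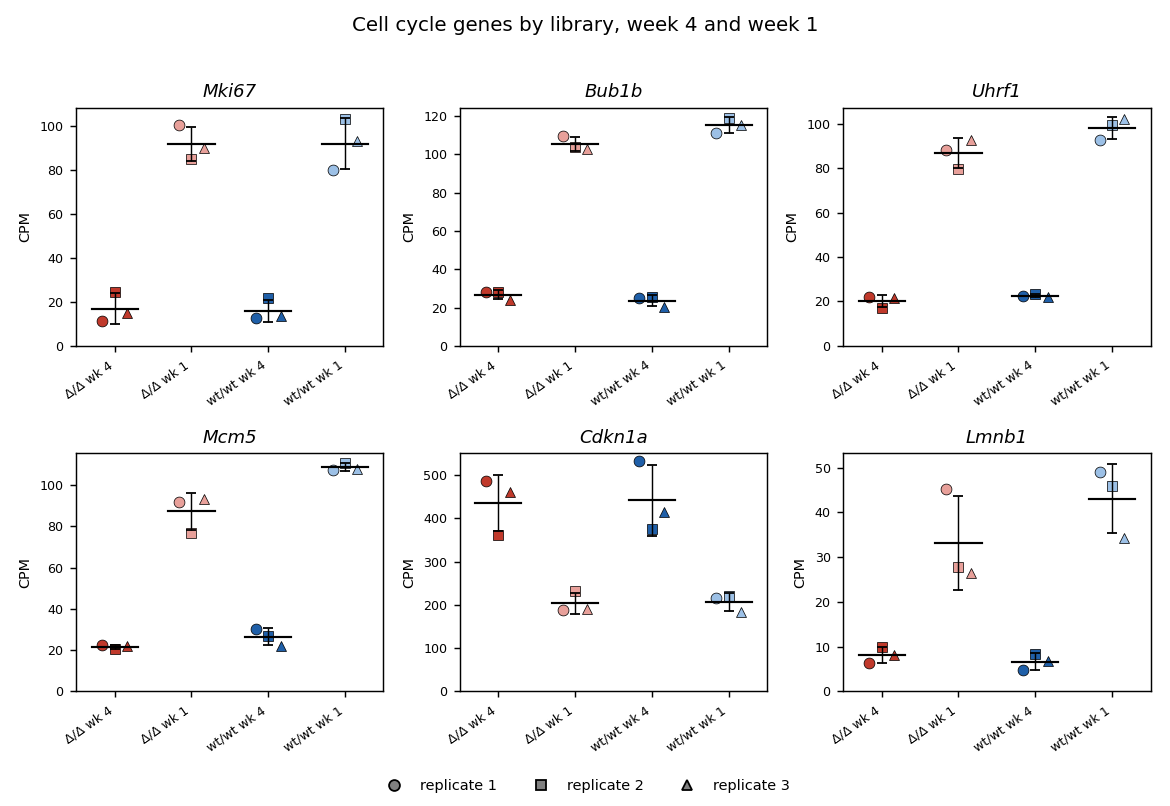
TMM-scaled CPM (linear axes from 0) of 6 cell cycle genes in each library, with the groups Δ/Δ week 4, Δ/Δ week 1, wt/wt week 4 and wt/wt week 1 from left to right, lines at group means and bars of 1 SD (n = 3). Mki67, Bub1b, Uhrf1, Mcm5 and Lmnb1 were lower at week 4 in both genotypes, and Cdkn1a averaged 436 ± 64.9 CPM at week 4, against 203 ± 24.6 CPM at week 1, in Δ/Δ MSCs.

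The windows before and just after the start site of 2 of these genes are shown because genes of mitosis share short promoter elements, CCAAT and the cell cycle homology region (CHR) TTTGAA. Sequences are from RefSeq (GRCm38.p6), run from 250 bases before to 50 bases after the annotated start in the direction of transcription, and have in capitals each CCAAT or TTTGAA on either strand (ATTGG and TTCAAA are the same elements read on the other strand). The Mki67 window is chr7:135716330-135716629 on the minus strand and has 5 such elements, and the Cdca3 window is chr6:124829926-124830225 on the plus strand and has 4.
Mki67: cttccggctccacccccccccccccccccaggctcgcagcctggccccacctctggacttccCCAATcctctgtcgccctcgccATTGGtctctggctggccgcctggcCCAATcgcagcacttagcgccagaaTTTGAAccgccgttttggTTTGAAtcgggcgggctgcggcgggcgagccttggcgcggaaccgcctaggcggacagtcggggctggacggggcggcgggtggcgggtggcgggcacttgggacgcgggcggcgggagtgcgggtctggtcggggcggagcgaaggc
Cdca3: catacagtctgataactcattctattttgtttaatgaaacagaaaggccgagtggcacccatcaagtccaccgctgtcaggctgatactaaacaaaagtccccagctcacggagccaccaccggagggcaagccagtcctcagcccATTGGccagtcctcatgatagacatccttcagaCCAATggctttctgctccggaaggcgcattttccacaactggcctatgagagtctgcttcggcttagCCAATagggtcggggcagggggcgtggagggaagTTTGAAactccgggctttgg
TTTGAA was in a window of 41 of 57 genes of the G2 and mitosis list (71.9%) and of 8 of 41 genes of the S phase list (19.5%). These lists hold tested genes only. The element was in a window of 14% of all tested genes with a window, and of 20.2% of all 27025 genes with a window. CCAAT was in a window of 70.2% of the mitosis genes, 65.9% of the S phase genes, 43% of all tested genes and 41.1% of all genes. A match of letters is a description of the window.

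Of 17 CDK inhibitors, D cyclins with their kinases, pocket proteins and Lmnb1, 3 were higher and 5 lower, beside 18.8% and 16.3% of all genes, with a median log2 fold change of 0.12. Cdkn1a, the CDK inhibitor p21 that p53 induces, had 485, 362 and 459.6 CPM at week 4, against 188, 232 and 189.9 CPM at week 1. Every week 4 library lay above every week 1 library (log2 fold change 1.10, 0.16 SE, adjusted p = 1.89e-04 by edgeR), and the wt/wt change was 1.09. Ccnd2, which encodes cyclin D2, had a log2 fold change of 0.79, and Rbl2, the pocket protein p130 found in resting cells, of 0.58. Lmnb1, which encodes the nuclear lamin B1, had 6.30, 9.93 and 8.11 CPM at week 4, against 45.3, 27.9 and 26.5 CPM at week 1, with no overlap and a log2 fold change of -2.04 (0.26 SE).

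The INK4 inhibitors Cdkn2a and Cdkn2b, which are linked to senescence, were not called, while Cdkn2c was lower (log2 fold change -0.58, adjusted p = 0.00195 by edgeR). Cdkn2a, which encodes p16 and Arf, was near the floor at 0.493, 1.48 and 1.34 CPM at week 4, against 0.907, 0.718 and 0.517 CPM at week 1, and the groups overlapped (log2 fold change 0.69, adjusted p = 0.296 by edgeR). Cdkn2b, which encodes p15, had 163, 110.4 and 138 CPM at week 4, against 123, 123 and 132 CPM at week 1, with overlap and an adjusted p of 0.6 by edgeR. In wt/wt MSCs Cdkn2b was called higher, at 189 ± 34.6 CPM at week 4, against 99.5 ± 16.2 CPM at week 1. The difference of -0.80 between genotypes was not called (adjusted p = 0.0654 by edgeR). Cdkn1c, the CDK inhibitor p57, had 5.28, 5.33 and 6.54 CPM at week 4, against 10.3, 7.41 and 11.4 CPM at week 1, a log2 fold change of -0.76 whose call was lost without week 4 replicate 1 or without week 1 replicate 3 (-0.92 to -0.61 over all settings). In wt/wt MSCs Cdkn1c averaged 1.35 ± 0.474 CPM at week 4, against 14.5 ± 0.772 CPM at week 1, and its change over culture in Δ/Δ MSCs stood 2.69 above that of wt/wt MSCs on the log2 scale (adjusted p = 2.45e-04 by edgeR). Of 32 tested chemokines, cytokines and other factors that senescent cells secrete, 6 were higher and 6 lower in Δ/Δ MSCs.

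Of 40 targets of p53, 22 were higher and 2 lower at week 4 in Δ/Δ MSCs, with a median log2 fold change of 0.56, and in wt/wt MSCs 17 were higher and 2 lower. Fas, the death receptor, had 45.1, 40.8 and 42.3 CPM at week 4, against 14.3, 18.0 and 14.1 CPM at week 1. Gadd45a, a stress-induced inhibitor of growth, had 14.5, 17.7 and 15.8 CPM at week 4, against 5.02, 6.30 and 5.41 CPM at week 1. Neither showed overlap, and their log2 fold changes were 1.47 for Fas and 1.52 for Gadd45a. Btg2, an antiproliferative gene that also responds early to growth signals, had 471, 487 and 449 CPM at week 4, against 86.7, 97.8 and 86.5 CPM at week 1, a 5.20-fold rise, and was the member of the list whose change differed by genotype. Its wt/wt log2 fold change was 0.50 and the difference was 1.88 (adjusted p = 0.0127 by edgeR), which did not pass with the replicate block (1.65 to 2.23 over the settings). The wt/wt libraries of Btg2 had 398, 314 and 340 CPM at week 4, against 112, 317 and 316 CPM at week 1. Replicate 1 of wt/wt week 1 thus lay near the Δ/Δ libraries of week 1. Dcxr, a carbonyl reductase, had a log2 fold change of 1.37 in Δ/Δ and 1.48 in wt/wt MSCs.

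Genes of DNA repair were more often lower than higher: 27 of 60 were lower and 5 higher in Δ/Δ MSCs (3 higher without any 1 of the week 4 libraries or without week 1 replicate 3), and 27 were lower and 3 higher in wt/wt MSCs. Fanca, of the Fanconi anaemia core complex, had 2.89, 4.05 and 2.63 CPM at week 4, against 14.2, 13.2 and 15.6 CPM at week 1, and Exo1, a resection nuclease, fell by 1.95 on the log2 scale. The groups did not overlap for Fanca, with a log2 fold change of -2.20. Trp53bp1, the break-binding protein 53BP1, was not called (66.2, 78.6 and 70.6 CPM at week 4, against 88.7, 82.5 and 82.1 CPM at week 1, adjusted p = 0.285 by edgeR). Of 23 genes of shelterin, telomerase and telomere replication, 6 were lower and 2 higher, with Pot1a itself among the higher. Both calls of higher were lost without week 1 replicate 1, and 1 to 3 genes were higher without another library. Among the 6 were Dkc1, which encodes the telomerase partner dyskerin, at 27.5 ± 2.59 CPM at week 4, against 61.9 ± 0.843 CPM at week 1, the telomere helicase gene Rtel1 (log2 fold change -0.84), Rif1, which times replication (-0.71), and Tinf2, which encodes the shelterin protein TIN2 (-0.55).

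Genes that interferon induces rose in Δ/Δ MSCs over culture. Type I interferon acts through the IFNAR receptor, JAK kinases and the ISGF3 complex, which binds the interferon-stimulated response element (ISRE) of its target genes. Of 54 interferon-stimulated genes, 46 were higher at week 4 and 8 were not called, beside 18.8% higher of all genes, with a median log2 fold change of 2.08. In wt/wt MSCs 2 were higher and 24 lower (median -1.04), and the Δ/Δ change lay above the wt/wt change for 39 of the 54.

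Ifit1, which binds foreign RNA at its cap, had 170.0, 12.8 and 70.3 CPM at week 4, against 2.36, 2.43 and 2.61 CPM at week 1. Week 4 replicates 1 and 3 stood far above the others, replicate 2 was the lowest of week 4, and all 3 lay above every week 1 library (log2 fold change 5.09, 0.94 SE, adjusted p = 0.00116 by edgeR). Isg15, a ubiquitin-like modifier, had 47.6, 3.85 and 27.2 CPM at week 4, against 1.81, 1.27 and 1.31 CPM at week 1, with the same order of the week 4 libraries. Oasl2, of the oligoadenylate synthetase family, had 141, 13.6 and 75.2 CPM at week 4, against 2.60, 4.53 and 3.77 CPM at week 1. Rtp4, a receptor chaperone induced by interferon, had 93.6, 6.91 and 41.4 CPM at week 4, against 2.06, 3.65 and 3.10 CPM at week 1. Their log2 fold changes were 4.19, 4.39 and 4.00 in that order, with standard errors of 0.95, 0.86 and 0.90. Isg15 was picked after its values were seen.

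In all 46 called members week 4 replicate 2 was the lowest of the week 4 libraries, and in 41 the order was replicate 1, then 3, then 2. The median ratio of replicate 1 to replicate 2 was 3.35, and over the mean of week 1 the median ratio was 6.95 for replicate 1, 2.19 for replicate 2 and 4.77 for replicate 3. The week 4 and week 1 values did not overlap in 42 of the 46. These 46 were taken because they were called, which in part fixes that result. The 51.2% without overlap among all genes tested, called or not, is therefore not a like background. Without week 4 replicate 2 the list had 49 members called higher, and without week 1 replicate 3 it had 37.

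The week 4 libraries lay closer together for other members. Iigp1, an immunity-related GTPase, had 89.6, 39.8 and 47.3 CPM at week 4, against 4.84, 2.38 and 2.74 CPM at week 1. Ifih1, the RNA sensor MDA5, had 25.0, 14.6 and 19.05 CPM at week 4, against 4.54, 3.92 and 4.41 CPM at week 1. Gbp2, a guanylate-binding protein, had 83.1, 50.9 and 69.6 CPM at week 4, against 24.5, 31.1 and 28.8 CPM at week 1. None of these 3 genes showed overlap between the weeks, and their log2 fold changes were 4.17, 2.19 and 1.27. Irf1, a transcription factor of interferon gamma signalling, had a log2 fold change of 0.89, the wt/wt change was 0.27, and the difference of 0.63 was not called (adjusted p = 0.135 by edgeR).

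In wt/wt MSCs the levels ran the other way and also varied between libraries. Rtp4 had 38, 30 and 44 counts in the wt/wt libraries of week 4, against 595, 158 and 1416 counts in those of week 1. The log2 fold change of wt/wt MSCs was -2.89 for Ifit1 and -3.05 for Oasl2, and the Δ/Δ change stood above it by 7.98 for Ifit1 (adjusted p = 0.00187) and by 7.45 for Oasl2 (adjusted p = 0.00198 by edgeR). So the difference between genotypes holds both the higher Δ/Δ level at week 4 and the higher wt/wt level at week 1. Genes of the interferons themselves gave 1 count in all 12 cultured libraries for Ifnb1 and 0 for Ifna2, Ifna4, Ifnl2, Ifnl3 and Ifng.

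**Figure D3:**
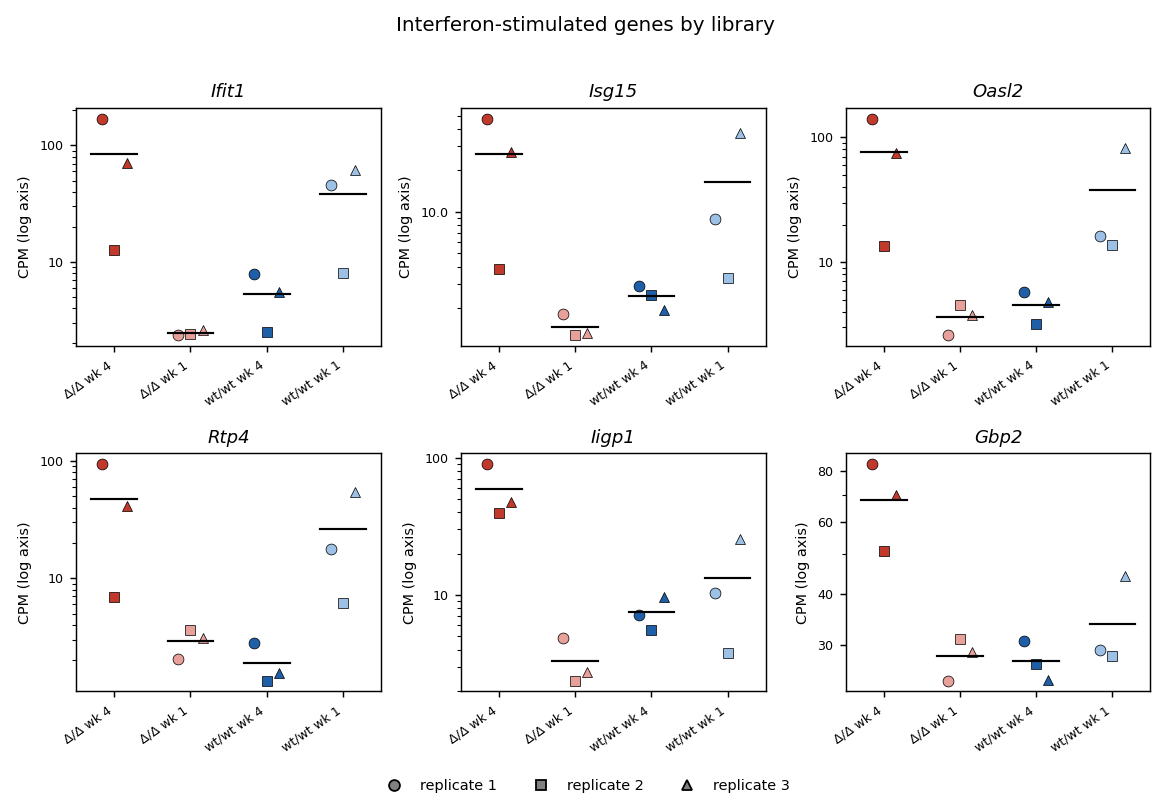
TMM-scaled CPM (log axes) of 6 interferon-stimulated genes in each library, with the groups Δ/Δ week 4, Δ/Δ week 1, wt/wt week 4 and wt/wt week 1 from left to right and lines at group means (n = 3). All 3 week 4 libraries of Δ/Δ MSCs lay above the week 1 libraries for each gene, replicate 2 was lowest, and for Ifit1 the wt/wt libraries averaged 5.31 ± 2.68 CPM at week 4, against 38.5 ± 27.5 CPM at week 1.

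The windows of Ifit1 and Isg15 are shown with the core of the ISRE, GAAA-NN-GAAA (N is any base), on either strand in capitals, where TTTC-NN-TTTC is the element read on the other strand. They are RefSeq windows of GRCm38.p6 with the same limits as above, chr19:34640639-34640938 on the plus strand for Ifit1, with elements that begin 104 and 85 bases before the start, and chr4:156200769-156201068 on the minus strand for Isg15, with 3 overlapping elements that begin 78, 72 and 66 bases before it.
Ifit1: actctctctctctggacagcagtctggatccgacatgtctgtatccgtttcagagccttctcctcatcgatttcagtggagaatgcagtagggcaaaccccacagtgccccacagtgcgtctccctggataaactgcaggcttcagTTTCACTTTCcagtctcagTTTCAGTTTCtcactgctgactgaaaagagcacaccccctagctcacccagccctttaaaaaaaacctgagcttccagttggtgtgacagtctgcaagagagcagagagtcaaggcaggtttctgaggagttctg
Isg15: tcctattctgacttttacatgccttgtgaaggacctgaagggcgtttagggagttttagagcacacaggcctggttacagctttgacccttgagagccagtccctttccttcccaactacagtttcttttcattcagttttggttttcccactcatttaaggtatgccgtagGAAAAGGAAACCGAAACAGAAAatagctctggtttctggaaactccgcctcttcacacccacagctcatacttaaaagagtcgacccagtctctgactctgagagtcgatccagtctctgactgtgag
GAAA-NN-GAAA was in a window of 19 of 41 genes of the interferon-stimulated list (46.3%), 4 of 14 of the class I list (28.6%) and 8.77% of the mitosis list. It was in a window of 3.65% of all tested genes with a window and of 3.99% of all 27025 genes with a window.

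Antigen presentation by MHC class I rose with them, and also rose in wt/wt MSCs. Of 17 tested genes, 16 were higher and 1 was not called in Δ/Δ MSCs (median log2 fold change 1.26), and 8 were higher and 1 lower in wt/wt MSCs (median 0.60). H2-K1, a class I heavy chain that shares reads with its close paralogs, had 617, 398 and 599.7 CPM at week 4, against 184, 186 and 192 CPM at week 1. B2m, the light chain, had 797, 759 and 758 CPM at week 4, against 346, 325 and 329.7 CPM at week 1, and Nlrc5, the transactivator of class I genes, had 27.1, 47.0 and 37.8 CPM at week 4, against 16.4, 12.8 and 14.2 CPM at week 1. The groups did not overlap for the 3 genes. Tap1, a subunit of the peptide transporter, and Psmb9, of the immunoproteasome, are also on the interferon list and had log2 fold changes of 1.31 and 2.14. Erap1, which trims the peptides, was the member not called (53.8, 42.2 and 44.5 CPM at week 4, against 37.3, 40.1 and 41.1 CPM at week 1, adjusted p = 0.285 by edgeR). The change differed between genotypes for H2-K1 alone, by 0.89 (adjusted p = 0.0244 by edgeR), a call that 11 of 21 settings did not keep. The call of Nlrc5 in Δ/Δ MSCs was lost without week 4 replicate 2, week 1 replicate 2 or week 1 replicate 3 (1.17 to 1.57 over the settings).

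Bone genes rose in part, and by less than in wt/wt MSCs. Osteoblasts lay down type I collagen, need alkaline phosphatase (Alpl) to form mineral, and in their late stages make the mineral-binding proteins Ibsp, Dmp1 and osteocalcin (Bglap). Of 54 osteoblast and osteocyte genes, 21 were higher and 8 lower at week 4 in Δ/Δ MSCs (median log2 fold change 0.34), against 37 higher and 2 lower in wt/wt MSCs (median 1.17). Without week 4 replicate 1, 5 were lower in Δ/Δ MSCs. The Δ/Δ change lay below the wt/wt change for 25 genes and above it for 4.

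Alpl had 1782, 1412 and 1770.1 CPM at week 4, against 755, 822 and 749 CPM at week 1 in Δ/Δ MSCs. All week 4 libraries lay above all week 1 libraries (log2 fold change 1.09, 0.12 SE, adjusted p = 2.47e-05 by edgeR), while wt/wt MSCs averaged 3274 ± 315 CPM at week 4, against 563 ± 8.30 CPM at week 1. The Δ/Δ change was below the wt/wt change by -1.44 on the log2 scale (adjusted p = 2.36e-04 by edgeR). Pth1r, the receptor of parathyroid hormone, had 143, 99.1 and 135 CPM at week 4, against 65.8, 84.4 and 79.8 CPM at week 1, with a log2 fold change of 0.71, against 2.88 in wt/wt MSCs.

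Ibsp, bone sialoprotein, had 706, 344 and 251 CPM at week 4, against 242, 418 and 269 CPM at week 1. Its weeks overlapped and it was not called (log2 fold change 0.49, adjusted p = 0.305 by edgeR), whereas wt/wt MSCs averaged 4407 ± 1456 CPM at week 4, against 199 ± 30.2 CPM at week 1. Dmp1, a matrix protein of osteocytes, had 45.7, 22.03 and 13.2 CPM at week 4, against 11.6, 13.4 and 12.3 CPM at week 1, with overlap. Its call (log2 fold change 1.11, adjusted p = 0.0281 by edgeR) was lost under 7 of 17 settings, and the value was 0.50 without week 4 replicate 1. Bglap was under 1 CPM in all 6 Δ/Δ libraries and shares reads with near-identical copies. The wt/wt log2 fold changes were 4.47 for Ibsp, 4.23 for Dmp1 and 4.40 for Bglap, and the Δ/Δ changes stood below them by -3.98, -3.12 and -3.73 (adjusted p = 4.28e-04, 0.00206 and 0.00299 by edgeR). These 3 genes were picked after their values were seen.

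Early regulators and the matrix took other directions. Runx2, the master transcription factor of osteoblasts, had 47.2, 68.3 and 70.4 CPM at week 4, against 71.9, 53.7 and 64.1 CPM at week 1, with overlap (adjusted p = 0.945 by edgeR), and Spp1, which encodes osteopontin, had 12036, 8215 and 7369 CPM at week 4, against 8110.0, 8622 and 6524 CPM at week 1, also with overlap (adjusted p = 0.382 by edgeR). Col1a1, a chain of type I collagen, had 2096, 3887 and 3395 CPM at week 4, against 7037, 7190.0 and 7732 CPM at week 1. Week 4 replicate 1 was the lowest library, and the groups did not overlap (log2 fold change -1.23, 0.34 SE, adjusted p = 0.014 by edgeR), but the call was lost without that replicate (-1.41 to -0.99 over the settings). The difference from wt/wt was -1.87 (adjusted p = 0.0319 by edgeR) and was lost under 11 of 21 settings. The wt/wt libraries of Col1a1 had 3888, 10762 and 10121 CPM at week 4, against 4156, 6839 and 4857 CPM at week 1. Their change was not called (log2 fold change 0.64, adjusted p = 0.163 by edgeR).

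Bmp2, an osteogenic ligand, had 42.1, 49.4 and 54.3 CPM at week 4, against 6.96, 8.79 and 9.24 CPM at week 1. Bmp4, of the same family, had 302, 237 and 259.6 CPM at week 4, against 67.9, 67.3 and 71.1 CPM at week 1. Mmp13, the collagenase of bone and cartilage remodelling, had 2811, 3372 and 2698 CPM at week 4, against 411, 443 and 349 CPM at week 1. The weeks of all 3 genes were far apart, with 5.82-fold, 3.87-fold and 7.38-fold higher means. Cdh11, osteoblast cadherin, had a log2 fold change of 1.42. The wt/wt changes were 1.81 for Bmp2, 2.62 for Bmp4, 2.33 for Mmp13 and 1.03 for Cdh11, and none of the 4 differences was called (adjusted p = 0.111 to 0.286 by edgeR).

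Of 15 tested cartilage genes, 3 were higher and 6 lower, with a median log2 fold change of -0.56 that ran from -0.59 to -0.09 over the settings, the last with no filter on low counts. Without 1 of the libraries it lay between -0.52 and -0.26. Col2a1, the main collagen of cartilage, had 1659.8, 2127 and 2279 CPM at week 4, against 7718, 7341 and 8046 CPM at week 1. Col11a1, which joins its fibrils, fell to 23.6 ± 6.72 CPM at week 4, against 122 ± 6.58 CPM at week 1. The weeks did not overlap for Col2a1 (log2 fold change -1.93, 0.30 SE). Sox9, the transcription factor that starts the cartilage programme, was not called (25.2, 20.5 and 19.6 CPM at week 4, against 28.9, 26.1 and 22.3 CPM at week 1, adjusted p = 0.23 by edgeR). Col10a1, the collagen of hypertrophic cartilage, had 40.1, 49.6 and 47.1 CPM at week 4, against 26.9, 24.9 and 24.6 CPM at week 1. Its log2 fold change was 0.84 in Δ/Δ and -0.28 in wt/wt MSCs, a difference of 1.12 (adjusted p = 0.00753 by edgeR). Scx, scleraxis, a transcription factor of tendon, had 1.90, 1.63 and 2.29 CPM at week 4, against 8.41, 13.2 and 13.8 CPM at week 1, and its target Tnmd, tenomodulin, had 0.352, 0.346 and 0.260 CPM at week 4, against 2.48, 3.70 and 4.32 CPM at week 1. The change of Scx stood below that of wt/wt MSCs by -2.31 (adjusted p = 0.00312 by edgeR). For Tnmd the difference of -1.36 kept its call under 3 of 20 settings, and for Col11a1 the difference of -1.44 under 9 of 21.

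Genes of fat cells split. Of 49 genes of adipocyte differentiation and lipid storage, 14 were higher and 11 lower in Δ/Δ MSCs (median log2 fold change -0.06), and the Δ/Δ change lay above the wt/wt change for 9 and below it for 2. Pparg, the master transcription factor of fat cells, had 135, 137 and 134 CPM at week 4, against 88.1, 91.5 and 94.2 CPM at week 1. The week 4 libraries were level with each other and above all of week 1 (log2 fold change 0.57, 0.10 SE, adjusted p = 9.82e-04 by edgeR). Pparg in wt/wt MSCs averaged 67.6 ± 8.98 CPM at week 4, against 134 ± 3.20 CPM at week 1, so the genotypes moved in opposite directions, with a difference of 1.56 (adjusted p = 4.59e-05 by edgeR). Lpl, lipoprotein lipase, had 1031, 1371 and 1252 CPM at week 4, against 647, 479.8 and 447 CPM at week 1, without overlap, and wt/wt MSCs averaged 260.4 ± 20.7 CPM at week 4, against 597 ± 69.4 CPM at week 1. The difference for Lpl, picked after its values were seen, was 2.41 (adjusted p = 5.01e-05 by edgeR).

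Adipoq, the adipocyte hormone adiponectin, had 59.9, 61.3 and 49.3 CPM at week 4, against 48.4, 20.8 and 21.6 CPM at week 1. Its groups did not overlap, but week 1 replicate 1 lay near week 4, and the call (log2 fold change 0.91, adjusted p = 0.0428 by edgeR) was lost under 7 of 17 settings, 5 of them the omission of a library other than week 1 replicate 1. Cd36, a fatty acid transporter, had 12.2, 15.0 and 7.24 CPM at week 4, against 26.4, 9.73 and 9.79 CPM at week 1, with the same library apart, and was not called. Of 45 genes of fatty acid oxidation, 12 were higher and 2 lower (median log2 fold change 0.18), and 8 were higher without week 1 replicate 3, while at most 1 was lower with any of the 6 libraries left out. Cpt1a, which carries fatty acids into mitochondria, had 76.7, 91.8 and 96.1 CPM at week 4, against 103, 84.1 and 93.8 CPM at week 1, with overlap (adjusted p = 0.715 by edgeR). Apoe, the carrier of cholesterol and lipid, had 378, 298 and 401 CPM at week 4, against 26.0, 24.0 and 21.9 CPM at week 1, a 15.0-fold higher mean, and rose in wt/wt MSCs as well (log2 fold change 4.04).

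Cholesterol genes were more often lower than higher. Of 35 genes of cholesterol synthesis and its control, 16 were lower and 6 higher (median log2 fold change -0.70), against 9 lower and 5 higher in wt/wt MSCs, and the Δ/Δ change lay below the wt/wt change for 6 and above it for 3. Hmgcs1, an early enzyme of the pathway, fell by 0.92 and Fdps, which makes farnesyl diphosphate, by 1.15 on the log2 scale. Of the list of adipocyte and lipid storage genes, Scd2, a desaturase, fell by 1.29 and Elovl6, an elongase, by 1.30. The difference from wt/wt MSCs was not called for the 4 genes Hmgcs1, Fdps, Scd2 and Elovl6 (adjusted p = 0.138 to 0.705 by edgeR).

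Genes of serine, one-carbon and amino acid metabolism, many of them targets of the transcription factor ATF4, fell in Δ/Δ MSCs. Of 43 genes of a list written after values were seen, 29 were lower and 2 higher in Δ/Δ MSCs (median log2 fold change -0.86), against 11 lower and 10 higher in wt/wt MSCs, and the Δ/Δ change lay below the wt/wt change for 22. Phgdh, which opens serine synthesis, had 59.2, 55.7 and 57.2 CPM at week 4, against 170.3, 195 and 226 CPM at week 1. Psat1, the next enzyme, had 48.0, 45.0 and 42.3 CPM at week 4, against 169.9, 184 and 219 CPM at week 1. Slc7a5, the large neutral amino acid transporter, had 33.7, 42.6 and 32.9 CPM at week 4, against 157, 171 and 216 CPM at week 1. The weeks did not overlap in any of the 3, and week 1 replicate 3 was the highest library. Their changes stood below those of wt/wt MSCs by -1.14, -0.79 and -1.29 (adjusted p = 0.00221, 0.0113 and 0.00528 by edgeR). Bcat1, a branched-chain transaminase, fell by 2.61, with a difference of -0.72 that 9 of 21 settings did not keep.

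Factors of the blood stem cell niche rose in Δ/Δ MSCs. Of 22 tested genes, 14 were higher and 1 lower (median log2 fold change 1.14), against 10 higher and 4 lower in wt/wt MSCs (median 0.41), and the Δ/Δ change lay above the wt/wt change for 6 and below it for 1. Cxcl12 had 12735, 16208 and 14514 CPM at week 4, against 4932, 4482 and 4775 CPM at week 1. Every week 4 library was above every week 1 library (log2 fold change 1.61, 0.16 SE, adjusted p = 9.56e-06 by edgeR), and the difference from the wt/wt change of 1.16 was not called (adjusted p = 0.288 by edgeR). Vcam1, the adhesion molecule of stromal and endothelial cells, had 429, 572 and 516 CPM at week 4, against 127, 97.9 and 92.4 CPM at week 1, without overlap. Vcam1 in wt/wt MSCs averaged 160.2 ± 9.98 CPM at week 4, against 93.0 ± 14.0 CPM at week 1, and the difference was 1.48 (adjusted p = 0.00114 by edgeR).

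Kitl had 237, 413 and 259.7 CPM at week 4, against 150.3, 126 and 122 CPM at week 1. Replicate 2 was the highest of week 4, and the groups did not overlap (log2 fold change 1.19, 0.20 SE). The difference from the wt/wt change of 0.16 was not called, as its adjusted p of 0.0509 by edgeR lay just above the threshold. Il7, the cytokine that B cell precursors need, had 26.9, 25.6 and 21.7 CPM at week 4, against 11.5, 12.1 and 9.79 CPM at week 1, without overlap, and a difference of 0.91 that was not called (adjusted p = 0.0642 by edgeR). Angpt1, the ligand that keeps the TIE2 receptor active, had 86.3, 109 and 68.4 CPM at week 4, against 66.6, 70.8 and 54.4 CPM at week 1, with overlap, and was not called (log2 fold change 0.46, adjusted p = 0.132 by edgeR). Lepr, the leptin receptor that marks stromal cells of the marrow, had 74.3, 110.3 and 88.2 CPM at week 4, against 13.4, 10.1 and 11.2 CPM at week 1. Il15, a cytokine of natural killer cells, had 5.46, 4.79 and 5.35 CPM at week 4, against 1.03, 1.27 and 1.49 CPM at week 1. Lepr rose by 2.97 on the log2 scale in Δ/Δ MSCs, against 2.81 in wt/wt MSCs, and the difference was not called (adjusted p = 0.829 by edgeR). Il15 had a wt/wt change of -0.79 and a difference of 2.81 (adjusted p = 2.74e-04 by edgeR). Esm1, an endothelial and stromal proteoglycan, had a 7.82-fold higher mean at week 4.

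Factors that act on vessels were among the genes that parted from wt/wt MSCs. Of 58 growth factors, vessel factors and receptors, 23 were higher and 12 lower in Δ/Δ MSCs, against 18 and 18 in wt/wt MSCs, and the Δ/Δ change lay above for 16 and below for 6. Angpt2, the ligand that opposes Angpt1 at TIE2, had 377, 345 and 395 CPM at week 4, against 54.5, 47.7 and 44.7 CPM at week 1. The weeks were far apart (log2 fold change 2.93, 0.15 SE, adjusted p = 9.98e-08 by edgeR), whereas wt/wt MSCs averaged 31.9 ± 6.03 CPM at week 4, against 47.1 ± 4.94 CPM at week 1, a difference of 3.49 (adjusted p = 3.33e-06 by edgeR). Vegfc, the growth factor of lymph vessels, had 84.5, 105 and 109.6 CPM at week 4, against 12.2, 8.84 and 9.70 CPM at week 1, with a difference from wt/wt of 1.11 (adjusted p = 0.0117 by edgeR) that did not pass with the replicate block. Gas6, the ligand of the TAM receptors, had 4304, 3793 and 4447 CPM at week 4, against 875, 894 and 925 CPM at week 1, and rose by 1.97 on the log2 scale in wt/wt MSCs.

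**Figure D4:**
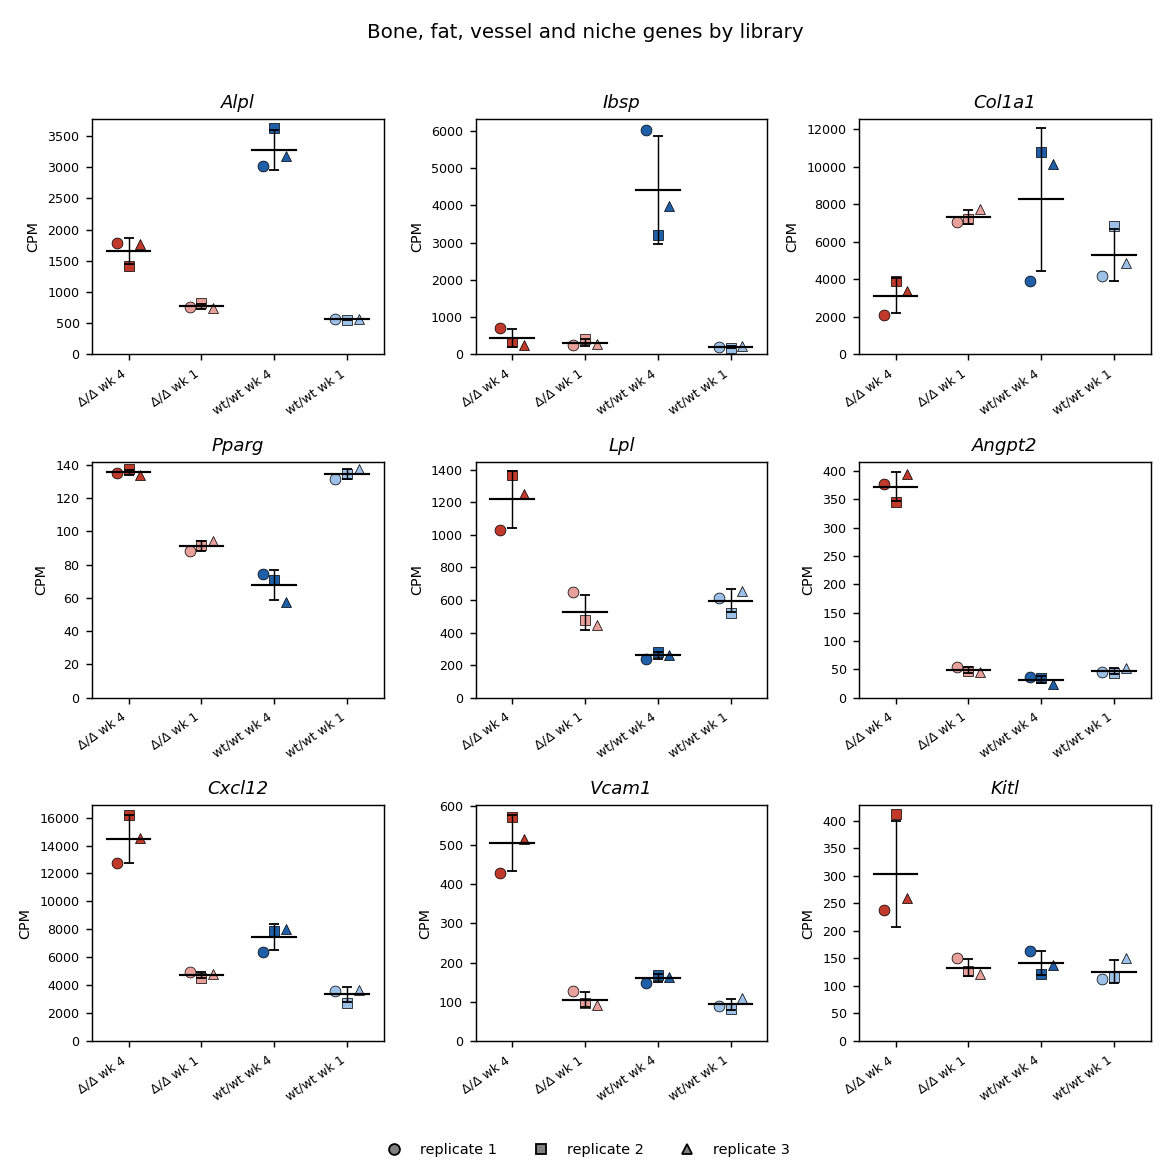
TMM-scaled CPM (linear axes from 0) of 9 bone, fat, vessel and niche genes in each library, with the groups Δ/Δ week 4, Δ/Δ week 1, wt/wt week 4 and wt/wt week 1 from left to right, lines at group means and bars of 1 SD (n = 3). Alpl rose in both genotypes and less in Δ/Δ MSCs, Ibsp was called higher in wt/wt MSCs only, with a difference of -3.98 on the log2 scale, and Pparg, Lpl and Angpt2 rose in Δ/Δ and fell in wt/wt MSCs.

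Wnt and BMP signalling genes rose more often than they fell. Of 56 genes of the Wnt pathway, 26 were higher and 8 lower in Δ/Δ MSCs, against 26 and 6 in wt/wt MSCs, and of 56 of the TGF-beta and BMP pathway, 21 were higher and 5 lower, against 17 and 9. Those lower were 5 in the Wnt list without week 4 replicate 1 or week 1 replicate 3, and in the TGF-beta and BMP list 2 without week 4 replicate 1 and 3 without week 1 replicate 2. Among ligands, Wnt11, of the noncanonical branch, had 143, 106 and 144 CPM at week 4, against 19.8, 19.6 and 19.5 CPM at week 1. Rspo3, which boosts Wnt receptors, had 41.9, 57.9 and 41.4 CPM at week 4, against 4.36, 6.91 and 5.99 CPM at week 1. Both rose without overlap, and for Wnt11 the difference from wt/wt was 1.16 (adjusted p = 0.00932 by edgeR). Gdf10, a ligand of the TGF-beta family, had 81.3, 74.8 and 84.8 CPM at week 4, against 2.30, 2.49 and 2.55 CPM at week 1. Its mean was 32.7-fold higher at week 4. The log2 fold change was 5.03 in Δ/Δ MSCs, against 6.14 in wt/wt MSCs, a difference whose call 10 of 20 settings did not keep.

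Chrdl1, Grem1 and Eng, which act in BMP or TGF-beta signalling, changed by a different amount in wt/wt MSCs. Chrdl1, which binds BMP ligands, had 492, 498 and 355 CPM at week 4, against 47.3, 51.1 and 44.0 CPM at week 1, with a difference of 0.92 (adjusted p = 0.00872 by edgeR). Grem1, another BMP antagonist and a marker of skeletal stem cells in mice, had 12.0, 15.2 and 20.01 CPM at week 4, against 6.17, 4.09 and 5.08 CPM at week 1, and wt/wt MSCs averaged 1.75 ± 0.0736 CPM at week 4, against 10.5 ± 1.77 CPM at week 1. Eng, the TGF-beta co-receptor endoglin and an MSC surface marker, had 80.9, 99.7 and 102 CPM at week 4, against 45.9, 39.8 and 39.9 CPM at week 1, and wt/wt MSCs averaged 5.03 ± 1.43 CPM at week 4, against 40.3 ± 6.41 CPM at week 1. Both moved in opposite directions in the genotypes, with differences of 4.22 for Grem1 and 4.15 for Eng (adjusted p = 8.80e-06 and 4.75e-06 by edgeR). Heyl, a target of Notch, had 4.97, 5.83 and 5.22 CPM at week 4, against 0, 0.221 and 0.0304 CPM at week 1, with week 1 at or near 0, so that no fold is given.

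Ptprz1, a receptor phosphatase found on glia and on osteoblast lineage cells, took the reverse course. It had 7.32, 9.53 and 6.09 CPM at week 4, against 23.2, 27.4 and 29.2 CPM at week 1 in Δ/Δ MSCs, and averaged 95.8 ± 21.0 CPM at week 4, against 18.1 ± 3.12 CPM at week 1 in wt/wt MSCs, a difference of -4.22 (adjusted p = 6.21e-06 by edgeR). Grem1, Eng, Angpt2 and Ptprz1 are among the genes with the smallest p for the difference between genotypes.

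The matrix changed gene by gene. Of 59 proteoglycans and glycoproteins, 20 were higher and 10 lower, and of 34 collagens, 8 were higher and 5 lower (median log2 fold change 0.17). The glycoproteins called lower numbered 5 without week 4 replicate 1 and 6 without week 4 replicate 3, week 1 replicate 1 or week 1 replicate 3. The collagens called lower numbered 3 without week 4 replicate 1 or 3, and those called higher 5 without week 4 replicate 3. Dcn, decorin, had 95.8, 117 and 98.9 CPM at week 4, against 2.30, 3.48 and 3.13 CPM at week 1, a 34.7-fold higher mean. Adamts15, a protease of proteoglycans, had 60.2, 91.6 and 95.5 CPM at week 4, against 2.36, 1.33 and 1.55 CPM at week 1. Both rose in wt/wt MSCs as well, by 3.83 for Dcn and 6.77 for Adamts15 on the log2 scale, and neither difference was called (adjusted p = 0.0725 and 0.242 by edgeR). Fbln5, which assembles elastic fibres, had a log2 fold change of 2.12. Fap, the protease that marks activated fibroblasts, had 33.7, 37.0 and 30.2 CPM at week 4, against 2.42, 2.87 and 2.86 CPM at week 1, with a difference from wt/wt of 1.03 (adjusted p = 0.00327 by edgeR).

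Col6a3, a chain of type VI collagen, had 99.1, 401 and 199 CPM at week 4, against 1538, 834 and 1242 CPM at week 1. Week 4 replicate 1 was lowest and replicate 2 highest, the weeks did not overlap (log2 fold change -2.37, 0.65 SE, adjusted p = 0.0139 by edgeR), and the call was lost without week 4 replicate 3. Fn1, fibronectin, had 2836, 8161 and 4728 CPM at week 4, against 15085, 10635 and 14039 CPM at week 1, in the same order of libraries, and was not called (log2 fold change -1.34, adjusted p = 0.059 by edgeR), though 7 of 17 settings called it. Thbs1, thrombospondin-1, was not called either (log2 fold change -0.61, adjusted p = 0.0587 by edgeR), and 7 of 17 settings called it as well. Lox, which crosslinks collagen, fell by 0.82 on the log2 scale, and 12 of 27 genes of collagen crosslinking and hydroxylation were lower and 5 higher (3 higher without week 4 replicate 1, week 1 replicate 1 or week 1 replicate 3).

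Of 35 mural, contractile and myofibroblast genes, 14 were lower and 3 higher in Δ/Δ MSCs, against 15 and 2 in wt/wt MSCs, and the Δ/Δ change lay above the wt/wt change for 5. Acta2, smooth muscle actin, had 4103, 4843 and 4863 CPM at week 4, against 7269.9, 7172 and 7909 CPM at week 1. Its weeks did not overlap (log2 fold change -0.69, 0.15 SE), the wt/wt change was -0.67, and Cnn1, calponin, fell by 0.97. Itga1, the collagen-binding integrin α1, had 349, 429 and 356 CPM at week 4, against 83.6, 83.9 and 76.2 CPM at week 1, a rise that exceeded that of wt/wt MSCs by 0.82 (adjusted p = 0.00509 by edgeR).

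The week 4 libraries of both genotypes differed in the level of genes with long transcripts. Among genes whose longest transcript in the mouse annotation has 8 kb or more, the median deviation from the group mean in Δ/Δ MSCs was -0.24 in replicate 1, 0.27 in replicate 2 and -0.03 in replicate 3 of week 4 (log2), and 0.06, -0.07 and -0.01 in those of week 1. For wt/wt MSCs the values were -0.41, 0.22 and 0.21 at week 4, and -0.17, 0.11 and 0.08 at week 1. The median log2 fold change of these 756 genes in Δ/Δ MSCs was -0.24, and -0.12 without week 4 replicate 1, against 0.07 for genes under 1 kb. Over the same 2 length groups the wt/wt medians were -0.15 and 0.02. The longest transcripts of Fn1 and Col6a3 have 8315 and 10106 bases, and the collagens have a median of 6084. Other genes of the text were in this length group too. They were Itga1 (10967 bases), Mki67 (10061), Trp53bp1 (9621), Nop58 (9507), Rif1 (8509), Ncl (8202) and Ptprz1 (8068). The median was 3648 bases for the G2 and mitosis list and 3413 for all genes tested. The part of transcript length in these results was not tested beyond these values.

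**Figure D5:**
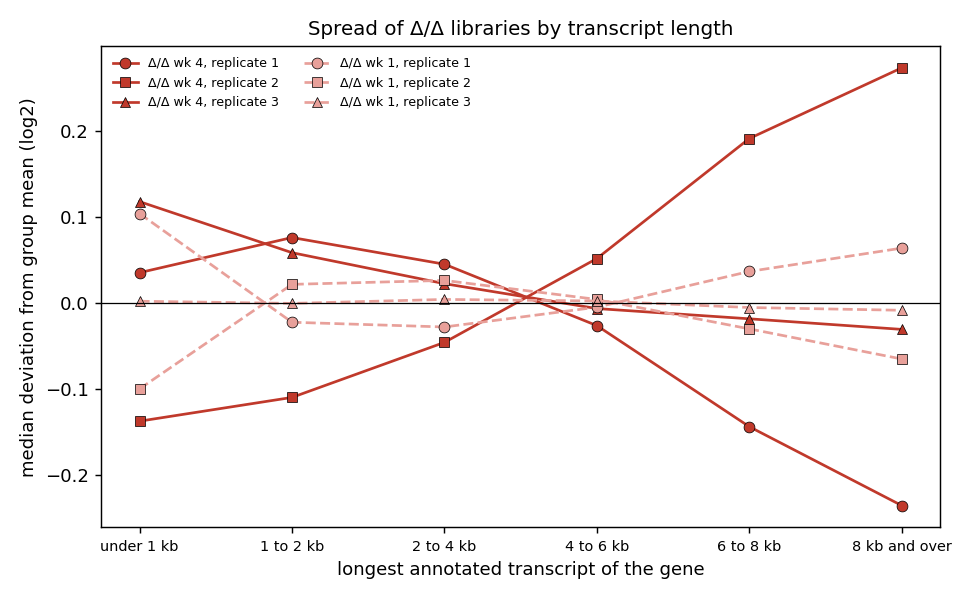
Median deviation of each Δ/Δ library from its group mean (log2, vertical axis) for genes grouped by the length of their longest annotated transcript (horizontal axis), with solid lines for the 3 week 4 libraries and dashed lines for the 3 week 1 libraries. The week 4 libraries spread with length, to -0.24 in replicate 1 and 0.27 in replicate 2 at 8 kb and over.

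Genes that build ribosomes and run glycolysis fell. Of 60 genes of ribosome biogenesis, 42 were lower and 18 were not called in Δ/Δ MSCs (median log2 fold change -0.55), against 23 lower in wt/wt MSCs, and of 78 cytosolic ribosomal proteins, 29 were lower and 49 not called in Δ/Δ MSCs, against 34 lower in wt/wt MSCs. The count of ribosomal proteins called lower was 12 without week 4 replicate 1 or week 1 replicate 1, 14 without week 1 replicate 3 and 16 without week 4 replicate 2, and the median stayed between -0.64 and -0.39 over all settings. Nop58, of the snoRNP that methylates ribosomal RNA, fell by 0.84, Ncl, nucleolin, by 0.78 and Rpl5, a protein of the large subunit whose pseudogenes can share its reads, by 0.86 on the log2 scale. Of 51 genes of glycolysis and the response to hypoxia, 26 were lower and 5 higher, against 17 and 5 in wt/wt MSCs. Ldha, lactate dehydrogenase A, had 2538, 2548 and 2628 CPM at week 4, against 5209, 4849 and 5274 CPM at week 1, without overlap, and Slc16a3, the lactate exporter MCT4, fell by 1.79. Aldoc, an aldolase, had 2.75, 3.21 and 3.61 CPM at week 4, against 20.1, 22.5 and 22.4 CPM at week 1, a fall that exceeded that of wt/wt MSCs, with a difference of -1.77 (adjusted p = 2.11e-04 by edgeR). Of 73 nuclear genes of the respiratory chain, 4 were lower and 69 were not called, and 1 was lower without week 4 replicate 2, week 1 replicate 1 or week 1 replicate 3.

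Immediate-early genes were more often higher than lower in Δ/Δ MSCs: 12 of 29 were higher and 2 lower (median log2 fold change 0.57), against 4 higher and 5 lower in wt/wt MSCs, and the Δ/Δ change lay above the wt/wt change for 9. Fos, a subunit of AP-1, had 499.5, 458 and 532 CPM at week 4, against 48.8, 40.4 and 44.2 CPM at week 1, an 11.2-fold higher mean, with no overlap. Zfp36, which destabilises cytokine mRNAs, had 192, 251 and 209 CPM at week 4, against 42.6, 38.1 and 39.9 CPM at week 1. Their changes exceeded those of wt/wt MSCs by 1.81 for Fos (adjusted p = 0.0169, not past the threshold with the replicate block or without week 1 replicate 2) and by 1.46 for Zfp36 (adjusted p = 0.00184 by edgeR). The wt/wt libraries of Fos had 288, 274 and 234 CPM at week 4, against 38.1, 117 and 95.8 CPM at week 1. Of these week 1 values, only that of replicate 1 lay near the Δ/Δ libraries of week 1.

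Some of the genes with the largest or most certain rise over culture were on no list. Gdpd2, a phosphodiesterase gene expressed in osteoblasts, had 195, 201 and 195 CPM at week 4, against 7.92, 9.62 and 7.48 CPM at week 1. Wdr86, a gene of unsettled function, had 53.9, 57.5 and 78.8 CPM at week 4, against 1.63, 1.38 and 1.37 CPM at week 1, and Shisa2, whose frog relative retains Wnt and FGF receptors in the endoplasmic reticulum, rose to 68.5 ± 6.21 CPM at week 4, against 4.10 ± 0.419 CPM at week 1. All 3 rose without overlap, and in wt/wt MSCs their log2 fold changes were 4.04, 6.07 and 4.08, with no difference called (adjusted p = 0.19 to 0.993 by edgeR).

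Markers of other cell types were summed in each library. Over 20 macrophage and monocyte markers the summed level was 28.4 to 32.6 CPM at week 4, against 19.9 to 22.5 CPM at week 1, with 5 markers at 0, among them C1qa, C1qc and Tyrobp. Lyz2, lysozyme, had 15.0, 15.8 and 17.7 CPM at week 4, against 2.48, 3.15 and 2.46 CPM at week 1, and its log2 fold change stood below that of wt/wt MSCs (difference -1.43, adjusted p = 0.00597 by edgeR), whose means were 13.7 ± 3.19 CPM at week 4, against 0.835 ± 0.0538 CPM at week 1. Of the 8 macrophage markers tested, 2 were higher, 1 was lower and 5 were not called. The higher ones were Lyz2 and Cybb, the latter at 3.17, 2.57 and 3.25 CPM at week 4, against 0.302, 0.111 and 0.0912 CPM at week 1. The lower one was Fcer1g, an Fc receptor chain, at 3.03, 1.88 and 2.81 CPM at week 4, against 11.6, 8.79 and 9.55 CPM at week 1 (adjusted p = 1.39e-04 by edgeR). Cd14 (3.90 to 4.51 CPM at week 4, against 3.83 to 5.75 CPM at week 1) and Csf1r were not called. Epithelial markers summed to 7.87 to 9.68 CPM at week 4, against 53.1 to 62.8 CPM at week 1, which was mainly Krt19, a keratin, at 9.01, 9.38 and 7.57 CPM at week 4, against 52.3, 61.8 and 52.7 CPM at week 1. Skeletal muscle markers summed to 31.9 to 33.4 CPM at week 4, against 74.0 to 118.9 CPM at week 1, with Myod1 and Pax7 at 0. Of the 3 muscle markers tested, Acta1, skeletal actin, was lower (13.8, 17.4 and 14.4 CPM at week 4, against 63.0, 99.8 and 107 CPM at week 1). Actn2, an actinin near the floor, was higher (0.986, 1.43 and 0.943 CPM at week 4, against 0.242, 0.0553 and 0 CPM at week 1). Des, desmin, was not called (17.0, 14.2 and 16.9 CPM at week 4, against 10.5, 9.78 and 12.1 CPM at week 1, adjusted p = 0.0586 by edgeR). Acta1 fell by 4.50 and Des by 0.71 on the log2 scale in wt/wt MSCs. The Δ/Δ changes stood above these by 1.94 and 1.28 (adjusted p = 0.00816 and 0.0265 by edgeR). For Actn2 the difference was not called (adjusted p = 0.512 by edgeR). The part of these markers in the other results was not tested.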

How the data were processed

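Full-length cDNA of cultured MSCs was made with a kit that does not mark the strand and was sequenced, with alignment by the authors to mm10 in HISAT2 2.0.4 and a count for each gene from featureCounts 1.6.3. The deposited values are whole-number counts per gene symbol with no normalization. Reads of overlapping, antisense or near-identical genes cannot be told apart.

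The 12 cultured libraries, 3 in each of 4 groups taken from the labels, were fitted together in R 4.3.3 with edgeR 4.0.16 (limma 3.58.1). The filter was filterByExpr (minimum count 10), the scaling TMM, and the model had a coefficient per group and no replicate block. The test was edgeR's quasi-likelihood F-test, and calls used an adjusted p (Benjamini-Hochberg over all genes tested) under 0.05. Standard errors come from the F statistic. The fit was tested on simulated data. Total counts were 20372063 to 90717232 at week 4 and 16497756 to 33353069 at week 1 in Δ/Δ MSCs, and p-values measure only the spread between these libraries, which may be in part technical.

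The comparison and the 46 gene lists were chosen with earlier results of these data known, and the list of serine, one-carbon and amino acid genes was added after values were seen, so lists are described by counts and medians and have no test. Genes were named where the study names them, where they were among the 12 largest changes in either direction or the 6 smallest p of a list (the largest changes only at a mean log2 CPM of 3 or more), or among the 8 smallest p in either direction for the difference between genotypes, with every member of lists of up to 20 genes and the 5 genes of highest CPM at either week. The text uses a part of these, and exceptions are stated. Transcript lengths are those of the longest transcript in the annotation, for 13108 of 13169 genes, and deviations by length used a pseudocount of 0.5 on the log2 scale. Promoter windows came from RefSeq and matched 41 of 54 interferon-stimulated genes and 57 of 71 G2 and mitosis genes. A gene counted as having an element if any of its windows held it. Where a gene had several windows, the one with the most of the marked elements is shown.

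Alternatives were size factors by RLE or none, no filter or 10 counts in every library, DESeq2 1.42.0, the 6 Δ/Δ libraries alone, a replicate block, a threshold of 0.01, a test against a fold of 1.5, counts thinned to the lowest total, and leaving out each library. The 6 libraries of cells sorted from mice were not used here.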

Additional observations from a re-analysis of the deposited data

Results flagged for a closer look

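The change over culture was tested for a difference between Δ/Δ and wt/wt MSCs with the interaction term of the edgeR fit, and the values below are the Δ/Δ log2 fold change minus that of wt/wt MSCs. Of 13169 genes, 537 had a Δ/Δ change above that of wt/wt MSCs and 405 had a change below it.

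Among the genes described above, the Δ/Δ change lay above for the interferon-induced genes Ifit1 (7.98), Rtp4 (7.83), Oasl2 (7.45), Isg15 (6.96), Iigp1 (4.99), Ifih1 (3.23) and Gbp2 (1.58) and for the class I gene H2-K1 (0.89). It lay above for the genes of growth control Cdkn1c (2.69), Btg2 (1.88), Fos (1.81) and Zfp36 (1.46), for the lipid genes Pparg (1.56) and Lpl (2.41), and for the niche and vessel genes Angpt2 (3.49), Il15 (2.81), Vcam1 (1.48) and Vegfc (1.11). It also lay above for the signalling genes Grem1 (4.22), Eng (4.15), Wnt11 (1.16) and Chrdl1 (0.92) and for the matrix and adhesion genes Col10a1 (1.12), Fap (1.03) and Itga1 (0.82).

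The Δ/Δ change lay below that of wt/wt MSCs for the bone genes Ibsp (-3.98), Bglap (-3.73), Dmp1 (-3.12), Pth1r (-2.17), Alpl (-1.44) and Col1a1 (-1.87), for the cartilage and tendon genes Scx (-2.31), Col11a1 (-1.44) and Tnmd (-1.36), and for the metabolic genes Aldoc (-1.77), Slc7a5 (-1.29), Phgdh (-1.14), Psat1 (-0.79) and Bcat1 (-0.72). It lay below for Ptprz1 (-4.22), Lyz2 (-1.43) and Gdf10 (-1.11) as well. Of these 42 genes, 27 kept the call under all settings tried and 15 lost it under some, with no change of direction. The muscle markers Acta1 (1.94) and Des (1.28) also had a Δ/Δ change above that of wt/wt MSCs. They are not among the 42, and their calls were not tried under the other settings.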

How the results depend on the processing

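The number of genes called over culture in Δ/Δ MSCs moved by more than 1.5 times only with stricter rules: 1568 higher and 1333 lower at an adjusted p of 0.01, and 897 higher and 701 lower in the test against a fold of 1.5 (glmTreat of edgeR). The same rules left 284 and 254 genes with a Δ/Δ change above that of wt/wt MSCs, and 224 and 213 below it. DESeq2 called 2540 higher and 2328 lower, and 719 above and 557 below. Leaving out 1 library at a time gave 1815 to 2329 genes higher, 1538 to 1965 lower, 367 to 678 above and 280 to 570 below. Scaling moved the median of all genes by -0.01 (RLE) or 0.02 (library size only) on the log2 scale, and 52.9% to 55.7% of calls were higher.

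Replicates with the same number did not vary together in Δ/Δ MSCs (correlations of deviations of -0.24, -0.06 and 0.18 between week 4 and week 1), so the numbers were not taken to pair the libraries. With the replicate block nested in genotype 2477 genes were higher and 2249 lower, with 482 above and 350 below wt/wt, and with the block on the 6 Δ/Δ libraries alone 2280 were higher and 2167 lower. Angpt1 was called with either block. Pot1a kept its direction, at 0.40 with the block on the 6 libraries (adjusted p = 0.0517 by edgeR) and 0.34 to 0.47 with a library left out. Its call was lost with that block, at a threshold of 0.01 (0.40), against a fold of 1.5 (0.40, adjusted p = 1 by edgeR), and without week 1 replicate 1 (0.34, adjusted p = 0.0592 by edgeR).

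Besides Pot1a, 116 genes of the text were run under up to 17 settings each. Of the 102 called among them, 84 kept the call under all settings in which they were tested and 18 lost it under some, and none changed direction. Among the 14 not called, 3 were called under some settings and 5 changed sign. Acta1, Actn2 and Fcer1g were among the genes of the text that were not run. With a library left out, Cdkn2b ran from -0.00686 without week 4 replicate 1 to 0.26, Ibsp from -0.0420 without the same library to 0.76, Cpt1a from -0.16 to 0.0171 without it, and Cd36 from -0.67 to 0.23 without week 1 replicate 1. Runx2 ran from -0.14 to 0.15 without week 4 replicate 1, and was 0.08 without week 1 replicate 1. Over the settings the median log2 fold change of the collagens ran from -0.13 to 0.37 that of the adipocyte genes from -0.16 to 0.17, that of the Wnt genes from 0.08 to 0.62 and that of the vessel factors from 0.18 to 0.42. At this depth Cdkn2a had 0.493 to 1.48 CPM in the 6 Δ/Δ libraries. A change of it was not called (log2 fold change 0.69, 0.49 SE), which does not show that its level stayed the same. The causes were not tested.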

Other observations

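Gene groups not described above moved less in one direction. Of 45 limb and mesenchymal patterning factors, 10 were higher and 9 lower at week 4 in Δ/Δ MSCs (median log2 fold change -0.05), against 5 higher and 20 lower in wt/wt MSCs (median -0.47), and the Δ/Δ change lay above the wt/wt change for 11 and below it for 3 by the edgeR test of the difference. Without 1 library those called in Δ/Δ MSCs were as few as 5 higher (without week 4 replicate 3 or week 1 replicate 2) and 5 lower (without week 1 replicate 3). Of 53 genes of antioxidant and glutathione defence, 16 were higher and 9 lower in Δ/Δ MSCs, against 13 and 8 in wt/wt MSCs, and 5 were lower without week 4 replicate 1 or 3 or week 1 replicate 1 or 3. Of 38 matrix proteases and their inhibitors, 13 were higher and 11 lower in Δ/Δ MSCs, against 18 and 5 in wt/wt MSCs, and 7 were lower without week 4 replicate 3 or week 1 replicate 3. Among 30 targets of YAP and TEAD, 3 were higher and 4 lower in Δ/Δ MSCs, against 1 and 10 in wt/wt MSCs.

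The pluripotency gene Nanog gave 8, 5 and 19 counts in the week 4 libraries of Δ/Δ MSCs and 2, 4 and 11 in those of week 1, and Sox2 and Pou5f1 gave 0 in all 6. Tert, the catalytic subunit of telomerase, had 3.59, 4.15 and 6.25 CPM at week 4, against 5.57, 6.52 and 5.99 CPM at week 1 in Δ/Δ MSCs, with overlap.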
